A study of Mus musculus with 18 samples.

Results

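Lumbar motor neurons of transgenic G93A mice, which express a mutant form of human SOD1, were compared between 60 and 120 days of age. The comparison rests on 6 of the 18 arrays of the study: the 3 G93A animals of 60 days and the 3 G93A animals of 120 days, chosen by their sample titles. The G93A mouse is a model of familial amyotrophic lateral sclerosis. The other groups used here are the 3 G93A animals of 90 days and 3 non-transgenic littermates, called controls, at each of 60, 90 and 120 days. Each array holds RNA of 1000 motor neurons of 1 animal, cut by laser from 10 µm frozen sections stained with toluidine blue, so the animals of different ages are different animals and no animal was followed over time. Strain background, sex, transgene copy number and disease stage are not stated in the sources used here, and the transgene adds human SOD1 to the animal's own mouse Sod1.

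Spinal motor neurons are large cells with long axons, rich in neurofilaments and dependent on axonal transport and mitochondrial energy supply. Mutant SOD1 is known to misfold and to load the proteasome and the chaperones, and microglia and astrocytes around the affected neurons are known to become reactive. The comparison asks which transcripts of the captured cells differ between an early and a late age of the mutant, and whether the same difference is seen in controls of the same ages.

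The values are the deposited signal intensities of probe sets, and differences are given on the log2 scale with the standard error (SE) of the limma fit, n = 3 animals per group. A probe set is called when its p, adjusted by the Benjamini-Hochberg method over all 16565 probe sets tested, is below 0.05, and only called genes are said to rise or fall. Signals around 5.4, the 10th percentile of all signals, are close to background: a difference against them depends on that low value, and no fold is given for it. The limma p-values set each difference against the spread within the 6 groups, pooled over all 18 arrays. Nothing in the labels says how samples were batched. Whatever else differed between the arrays of the compared ages is part of the difference itself, and the p-values do not account for it.

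Some measures of array quality differed between the arrays of the 2 ages. The trimmed mean signal is nearly the same on every array, so a control level is relative to the sample's own signal. Whether a difference in it comes from the animals' RNA or from the array was not tested. The hybridization controls, labelled transcripts added to every array, had a mean log2 level of 7.75, 9.99 and 10.68 on the 3 G93A arrays of 60 days and of 11.99, 11.53 and 11.34 on those of 120 days. The groups did not overlap (9.47 ± 1.53 against 11.62 ± 0.33, SD, n = 3; two-sided exact permutation p = 0.1, which is the lowest value possible with groups of 3). In controls the same level was 11.15 ± 0.40 at 60 and 11.64 ± 0.56 at 120 days (exact permutation p = 0.3, n = 3). Gapdh signal near the 3' end exceeded that near the 5' end, a measure of RNA or amplification length, by a log2 ratio of 4.14 ± 0.43 at 60 and 4.94 ± 0.54 at 120 days in G93A (exact permutation p = 0.2, n = 3). This ratio was 3.36 ± 0.33 and 4.48 ± 0.26 in controls (exact permutation p = 0.1, n = 3). Controls of the 2 ages also did not overlap in mean log2 18S level (10.67 and 8.09) or median signal (61.5 and 43.7), while G93A did. The poly-A control level did not overlap in G93A (2.64 and 3.57) but did in controls. The share of signals under 1 overlapped in neither genotype (0.311% and 0.0279% in G93A, 0.0235% and 0.451% in controls). Each measure without overlap had an exact permutation p of 0.1 (n = 3). The G93A arrays of 60 days correlated with each other at 0.744 to 0.803 over probe sets, those of 120 days at 0.683 to 0.710, and arrays of the 2 ages with one another at 0.630 to 0.710.

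**Figure D1:**
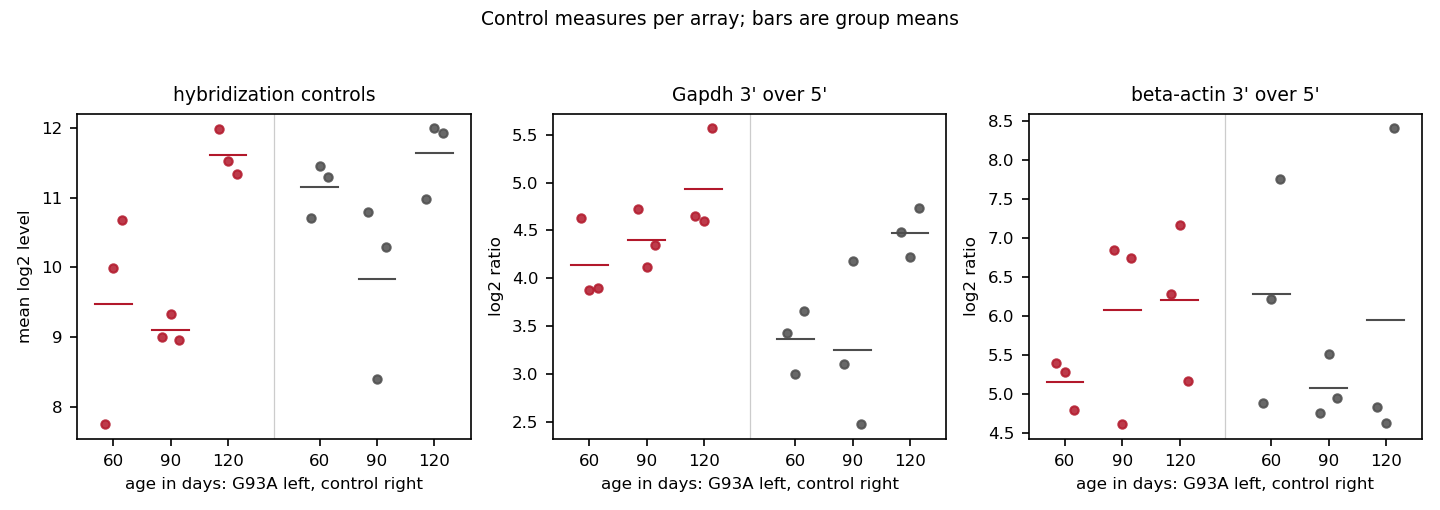
Control measures of each of the 18 arrays by age in days, G93A in red at the left and control in grey at the right of each panel: mean log2 level of the hybridization controls, and the 3' over 5' log2 ratio of Gapdh and of beta-actin. Points are arrays and bars are group means; the 3 G93A arrays of 120 days lie above the 3 of 60 days for the hybridization controls, and overlap them for Gapdh and beta-actin.

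Between 60 and 120 days 331 probe sets were called in G93A motor neurons, which is 2.00% of those tested: 166 were higher at 120 days (1.00%) and 165 lower (0.996%). On 1 representative probe set per gene these were 189 of 10051 genes (1.88%), of which 83 rose (0.826%) and 106 fell (1.05%). Counts of called genes in the gene lists below are to be read beside these shares. They use the representative probe sets, so a gene called only on another probe set is not counted. The median size of a called difference was 1.75 for the probe sets that rose and 1.98 for those that fell. All 166 that rose, and 161 of the 165 that fell, had no overlap between the 3 arrays of 60 and the 3 of 120 days, against 21.8% of all probe sets tested. The calls rest on these same arrays and nearly require such a gap, so the counts are a description. The median over all probe sets was -0.11, and at an unadjusted p under 0.05 there were 2700 probe sets, 1102 higher and 1598 lower. The median SE was 0.69. Over genes, 4511 had a difference above 0 and 5540 below, and 10.1% were lower at an unadjusted p under 0.05.

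The counts depended on single arrays. With 1 G93A array of 60 days left out, 53 probe sets were higher and 38 lower without replicate 1, 71 and 33 without replicate 2, and 74 and 99 without replicate 3. With 1 array of 120 days left out these were 54 and 142 without replicate 1, 43 and 59 without replicate 2, and 111 and 167 without replicate 3. With the hybridization-control level as a further term of the model, 23 were higher and 5 lower, and 9 of the 82 called genes named here passed: Mt1, Csf1r, Rapgef3, Clstn1, Ncdn, Stmn4, Ndufab1, Cycs and Atf4. All 331 probe sets kept their sign in each of these fits. Of the 82 genes, 16 stayed called with each of 12 arrays left out in turn: Mt1, Csf1r, Gfap, Ptgds, Rapgef3, Clstn1, Ncdn, Plec, Dbndd2, Slc13a3, Cxcl14 and Rpsa among those that rose, and Ndufab1, Uba3, Idi1 and Dact1 among those that fell. For most of the others the arrays whose removal, 1 at a time, ended the call are given beside the gene: a call lost without any of 4 arrays is one that each of those 4 ended on its own. Of the 82 genes, 53 had other tested probe sets, 93 in all, of which 76 had the same sign as the representative one and 17 the opposite. Of these 93, 8 were called with the same sign and 1, of Atp13a2, with the opposite.

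The course over the 3 ages was uneven. Over the 166 probe sets that were higher at 120 days, the median of the group means in G93A was a log2 level of 8.13 at 60, 8.17 at 90 and 9.90 at 120 days. Over the 165 that were lower, it was 8.12, 8.27 and 6.27. Both sets thus stood at 90 days about where they stood at 60 days. Between 60 and 90 days limma called 0 probe sets in G93A (0%), with 441 higher and 468 lower at an unadjusted p under 0.05. Between 90 and 120 days it called 1267 (7.65%), of which 554 were higher and 713 lower. The 90-day arrays had a hybridization-control level of 9.09, close to the 9.47 of 60 days, and its part in this course was not tested.

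In controls 1112 probe sets were called between the same ages (6.71%), and 6.72% of genes on their representative probe sets. Of those called in G93A, 64 were called in controls in the same direction, which is 19.3% of the 331 and 5.76% of the 1112. The probe sets that rose in G93A had a median control level of 8.42 at 60 and 9.26 at 120 days, and 47 of 166 rose in controls too. The probe sets that fell in G93A had a median control level of 7.36 at 60 and 7.30 at 120 days, and 17 of 165 fell and 3 rose in controls. The difference between the 2 age differences was called for 9 of the 166 and 45 of the 165, against 2.02% of all probe sets tested; that test shares the G93A arrays with the call, so the counts are a description.

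**Figure D2:**
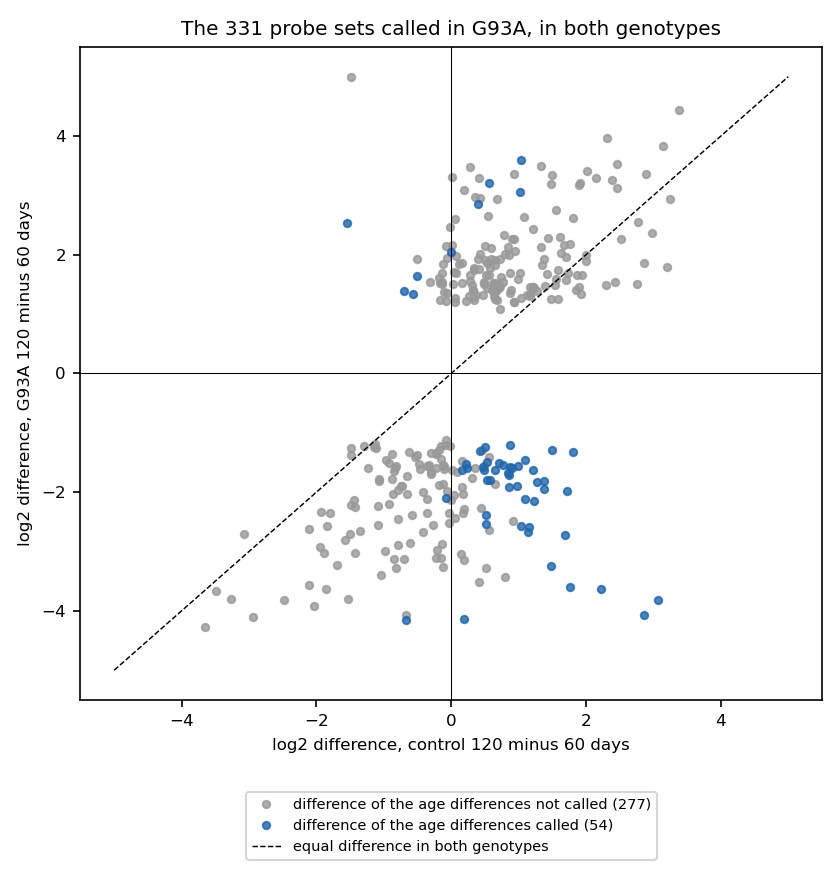
Log2 difference between 120 and 60 days in G93A (vertical axis) against the same difference in controls (horizontal axis) for the 331 probe sets called in G93A, chosen by their vertical value. Points in blue are the 54 whose difference between the genotypes was called; most lie in the lower right, lower with age in G93A and at or above 0 in controls.

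Genes of glia and phagocytes were among those that rose most. Csf1r, the receptor of colony-stimulating factor 1 on which microglia depend, had signals of 1566.8, 1197.1 and 1953.1 at 60 days and of 13708.2, 9707.9 and 6871.9 at 120 days. Every array of 120 days lay above every array of 60 days, and the rise was 6.30-fold (log2 2.65 ± 0.40, limma adjusted p = 0.00186). The G93A arrays of 90 days had 754.8, 1908.5 and 1383.4, within the range of 60 days or below it. In controls Csf1r differed by 0.54, from 2303.8, 1188.1 and 3225.6 to 2375.4, 2484.5 and 4619.8, and the test of the difference between the genotypes gave 2.11 (limma adjusted p = 0.0514). A second Csf1r probe set rose too, by 2.95 ± 0.48, and its remaining one differed by 1.20 ± 0.75 (limma adjusted p = 0.00286 and 0.442).

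Tyrobp, the adaptor protein of microglial receptors such as Trem2, had 105.9, 159.1 and 126 at 60 days and 982.7, 1239.3 and 795.9 at 120 days. It rose 7.70-fold (2.94 ± 0.58, limma adjusted p = 0.012). Tyrobp rose as far in controls, by 3.25 (limma adjusted p = 0.00174), but there from 10.5, 17.2 and 33.8 to 97.5, 152.4 and 353.3, a level near that of G93A animals at 60 days. Lgals3, galectin-3, a lectin of activated phagocytes, went from 89, 97 and 116 to 768.2, 1124.5 and 1135.5. It rose 9.93-fold (3.31 ± 0.72, limma adjusted p = 0.0186), while its control difference was 0.01. The difference between the genotypes for Lgals3 was 3.30 (limma adjusted p = 0.0877). The calls of both genes were lost with 1 array left out: Tyrobp without replicate 1 of 60 days or replicate 2 of 120 days (limma adjusted p = 0.0526 and 0.058), Lgals3 without replicates 1 or 2 of 60 days or replicate 2 of 120 days (0.0706, 0.0596 and 0.0696).

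Over the microglia and macrophage list as a whole, 36 of 46 genes were measured, and Csf1r, Lgals3 and Tyrobp rose and none fell. Its median difference was 0.94, against -0.12 for all 10051 genes and -0.52 for the same list in controls. With the hybridization-control term its G93A median was 0.59 and that of all genes -0.17. Of the 36, 17 were higher at 120 days without overlap, where 10.7% of all genes were, and 13 were higher at an unadjusted p under 0.05, where 6.52% were. The mean level of the list relative to all genes lay between -0.84 and -0.45 on the arrays of 60 days, between -0.93 and -0.33 at 90 and between 0.41 and 0.49 at 120 days. Its summed signal was 3680 to 4964 at 60 and 13150 to 19793 at 120 days. Csf1r alone, with the signals given above, made up a large part of that sum at 120 days. Members had values in both directions. The homeostatic receptor Cx3cr1 had 241.5, 78.1 and 119.4 at 60 and 53.2, 61.3 and 62 at 120 days (-1.16 ± 0.57, limma adjusted p = 0.318), and Cd14, a co-receptor for bacterial lipid, differed by -2.15 ± 0.96 (limma adjusted p = 0.258). Aif1, the microglial calcium-binding protein, was not tested, since its signal was above the array median on 1 of the 18 arrays. In captured tissue more cells of a type near the neurons and more RNA per cell cannot be told apart.

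Some genes of this list gave different answers by probe set. C1qb, a chain of complement C1q, had 5.4, 35.5 and 15 at 60 and 110.6, 68.5 and 114.2 at 120 days on its representative probe set (2.74 ± 0.91, limma adjusted p = 0.115). Its 2 probe sets marked _x_at, a mark for probes that may bind other transcripts, rose by 3.20 and 3.59. Laptm5, a lysosomal membrane protein of blood-derived cells and microglia, differed by -0.30 ± 0.43 on its representative probe set, and its _x_at probe set rose by 3.34, the smallest adjusted p of the comparison (1.98e-05). Probe sets marked _x_at made up 38.6% of those that rose, 16.4% of those that fell and 7.61% of those tested. With all of them left out, 78 probe sets were higher and 88 lower. C1qc and C1qa, the other C1q chains, differed by 1.93 ± 0.75 and 0.53 ± 0.48 (limma adjusted p = 0.189 and 0.628).

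Of 30 measured cathepsins and lysosomal hydrolases 1 rose and 0 fell. It was Ctsz, cathepsin Z, which had 28.4, 56.5 and 13.3 at 60 days and 198.3, 499.2 and 236.8 at 120 days. All 3 arrays of 120 days were higher, by 10.3-fold (3.37 ± 0.64, limma adjusted p = 0.00996), and without replicate 2 of 120 days the adjusted p was 0.058. The list's median was 0.48, against 0.25 in controls. Ctsb, Ctss and Hexa had differences of 1.47 ± 0.41, 1.18 ± 0.35 and 1.52 ± 0.46 without passing (limma adjusted p = 0.0621, 0.0815 and 0.0844), and their control differences were 1.80, 2.07 and 1.53. Clu, clusterin, a secreted chaperone that restrains complement, was the 1 of 15 measured complement genes that rose, by 1.24 ± 0.32 from 302.5, 410.6 and 204.3 to 617.7, 810.6 and 665.4 (limma adjusted p = 0.0434). That call was lost without any of 5 G93A arrays or either of 2 control arrays, with an adjusted p of up to 0.167.

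Among 22 measured astrocyte genes 2 rose and 0 fell. Gfap, the intermediate filament of reactive astrocytes, had 79.8, 21.6 and 90.3 at 60 days, 64.3, 90.2 and 110.7 at 90 and 406.2, 846.5 and 427.7 at 120 days. The groups of 60 and 120 days lay apart and the rise was 9.81-fold (3.29 ± 0.57, limma adjusted p = 0.00551). In controls Gfap differed by 0.41, and the difference between the genotypes was 2.89 (limma adjusted p = 0.0603). Atp1b2, a glial subunit of the sodium pump, rose by 2.43 ± 0.56, from 375, 54.3 and 546.1 to 1700.6, 1519.4 and 675.5 (limma adjusted p = 0.0269). Without replicate 2 of 60 days, its low array, the difference was 1.41 (limma adjusted p = 0.126), and its second probe set differed by -0.07. In controls Atp1b2 differed by 1.21 without a call, and its difference between the genotypes was not called. Aldoc and Vim did not pass on their representative probe sets (1.06 ± 0.32 and 1.81 ± 0.60, limma adjusted p = 0.0866 and 0.115), and an _x_at probe set of Vim rose by 2.12 (0.0391). The list's median was 0.31 in G93A and 0.36 in controls.

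Of 22 endothelial and vessel wall genes Pdgfrb, a receptor of pericytes, rose by 2.28 ± 0.56, from 170.4, 108.8 and 122.6 to 1046.2, 741.6 and 333.9 (limma adjusted p = 0.0342). It lost its call without any of 5 G93A arrays (limma adjusted p up to 0.131). In controls Pdgfrb differed by 1.44 without a call, and its difference between the genotypes was not called. Of 20 oligodendrocyte and myelin genes none passed, and the list's median was 0.15 against 0.57 in controls. Mbp, myelin basic protein, had 4725.1, 6733.2 and 8395.4 at 60 and 10976, 15607.4 and 13296.3 at 120 days (1.03 ± 0.38, limma adjusted p = 0.166), and 2 of its 7 other probe sets, both _x_at, were called higher. These 2 rose by 1.66 and 1.54 in G93A and by 1.93 and 2.43 in controls, without a called difference between the genotypes. The summed signal of the myelin list was 10779 to 13937 at 60 and 17176 to 24264 at 120 days in G93A, and 7392 to 10684 and 17072 to 25894 in controls. Ptgds, prostaglandin D2 synthase, abundant in meninges and oligodendrocytes, rose by 2.64 ± 0.49, from 2903.6, 1987.5 and 3386.1 to 27757.3, 11803.1 and 14344.9 (limma adjusted p = 0.00798). Neither red blood cell genes (5 measured) nor interneuron and transmitter genes (20 measured) held a called gene. The summed signals of the microglia, astrocyte, myelin and vessel lists were all higher on the 3 G93A arrays of 120 days than on the 3 of 60 days, and their part in the results that follow was not tested.

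**Figure D3:**
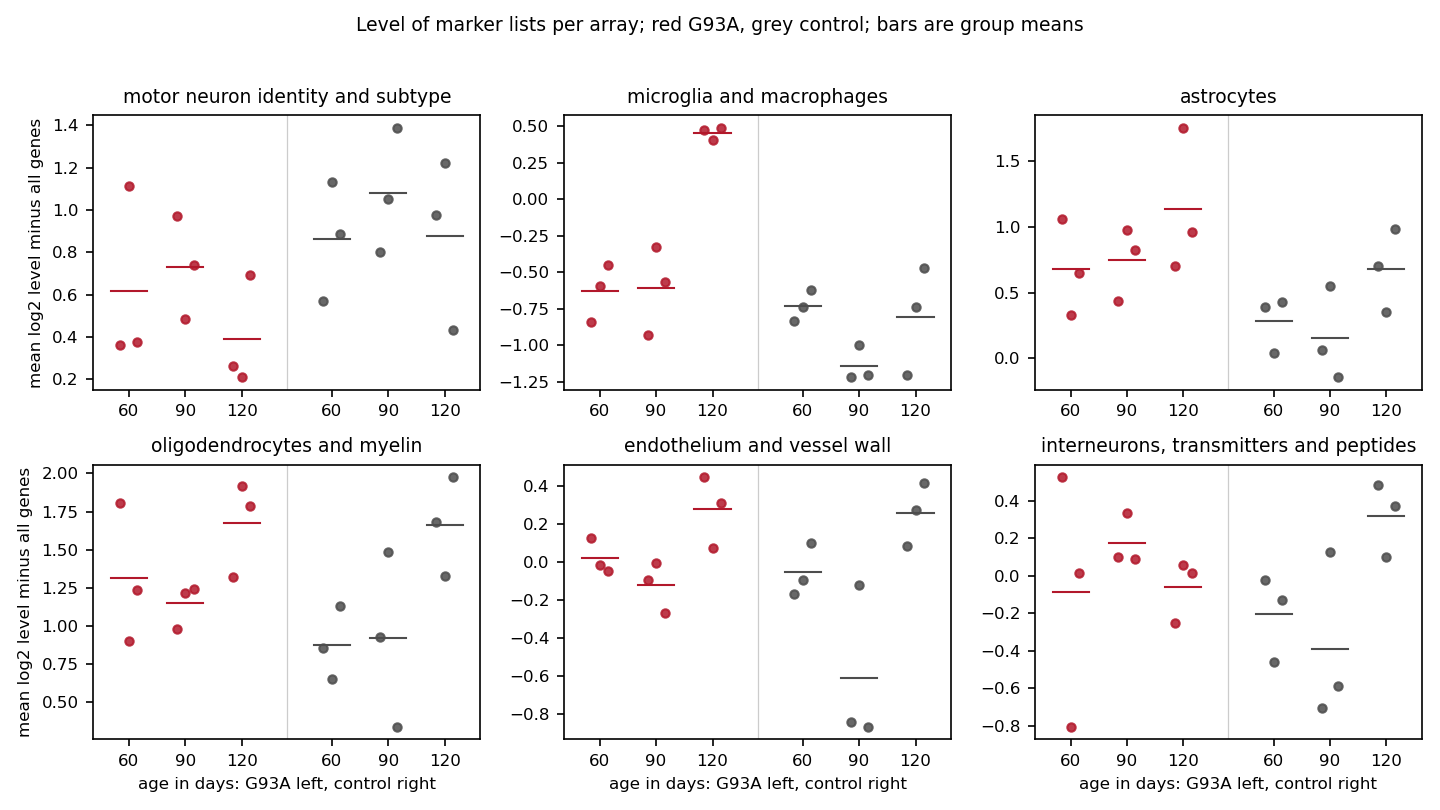
Mean log2 level of 6 cell type marker lists minus the mean over all genes, for each array, by age in days with G93A in red at the left and control in grey at the right. Points are arrays and bars group means; the microglia and macrophage list lies between 0.41 and 0.49 on the 3 G93A arrays of 120 days and at or below -0.33 on the other 15 arrays, while the oligodendrocyte list of 60 and 120 days overlaps in G93A and not in controls.

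Mt1, metallothionein 1, a small protein that binds zinc and copper and is induced by metals and oxidative stress, had the smallest adjusted p of all representative probe sets. Its signals were 1039.3, 820 and 1244 at 60 days, 758.8, 1003.1 and 763.4 at 90 and 9723.2, 11202.4 and 5527.5 at 120 days. The arrays of 60 and 90 days cover the same range, and all 3 of 120 days lay far above it: the rise was 8.28-fold (3.05 ± 0.36, limma adjusted p = 8.96e-05). Controls went from 765.6, 600.5 and 1575.2 to 1266.9, 1577 and 2991.7, a difference of 1.02 (limma adjusted p = 0.0859). The difference between the genotypes was 2.03 and passed (limma adjusted p = 0.0378). A second, dimmer Mt1 probe set differed by 0.91 ± 0.82 without overlap. Mt2, its neighbour on chromosome 8, had 744.2, 697.3 and 639.8 at 60 and 2868.8, 2276.6 and 1062.8 at 120 days. These also did not overlap, but 1.46 ± 0.40 missed the threshold (limma adjusted p = 0.0538).

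The 250 bases before the start of both genes are shown because the metal-response element, the site bound by the metal-sensing factor MTF-1, is what these genes are known for. The sequences are from RefSeq on build GRCm38.p6, Mt1 at chr8:94178839-94179088 and Mt2 at chr8:94172368-94172617, both on the plus strand, and end 1 base before the annotated start. Capitals mark each match to TGCACNC or TGCGCNC, the core of the element, on either strand.
Mt1: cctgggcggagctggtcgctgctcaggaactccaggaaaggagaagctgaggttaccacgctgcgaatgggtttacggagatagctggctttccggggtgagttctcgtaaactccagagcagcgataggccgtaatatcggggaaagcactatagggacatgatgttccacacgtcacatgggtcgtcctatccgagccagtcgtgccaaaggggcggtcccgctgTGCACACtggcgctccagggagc
Mt2: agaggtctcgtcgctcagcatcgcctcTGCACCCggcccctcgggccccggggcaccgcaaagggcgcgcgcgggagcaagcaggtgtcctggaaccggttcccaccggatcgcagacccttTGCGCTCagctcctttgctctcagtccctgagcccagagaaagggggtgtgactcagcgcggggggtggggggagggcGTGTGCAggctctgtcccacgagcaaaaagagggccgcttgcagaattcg
The Mt1 window held 1 match, and Mt2 held 3, of which 1 was on the minus strand. At least 1 match stood in 21.4% of 32851 promoter windows of the same length, and 3 or more in 1.26%. In the 50 bases after the start Mt1 had 2 more matches and Mt2 1 more. The counts thus depend on where the annotated start lies and are not counts of all sites of either gene.

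Mt1 was the only gene called among 31 measured metallothioneins and antioxidant enzymes, whose median was 0.31 in G93A and 0.50 in controls. Hmox1, heme oxygenase 1, which degrades heme under oxidative stress, had 7.7, 2.4 and 36.9 at 60 and 97.1, 47.3 and 85.9 at 120 days. Its arrays did not overlap, but 3.06 ± 0.97 did not pass (limma adjusted p = 0.0991), and in controls Hmox1 differed by 1.95. Sod1, the mouse gene, had 418.1, 206 and 415.1 at 60 and 294.5, 377.3 and 448.8 at 120 days. The groups overlapped (0.16 ± 0.56, limma adjusted p = 0.922), and without replicate 2 of 60 days the sign turned (-0.18). Whether its probe sets also detect the human transgene is not stated in the sources used here.

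**Figure D4:**
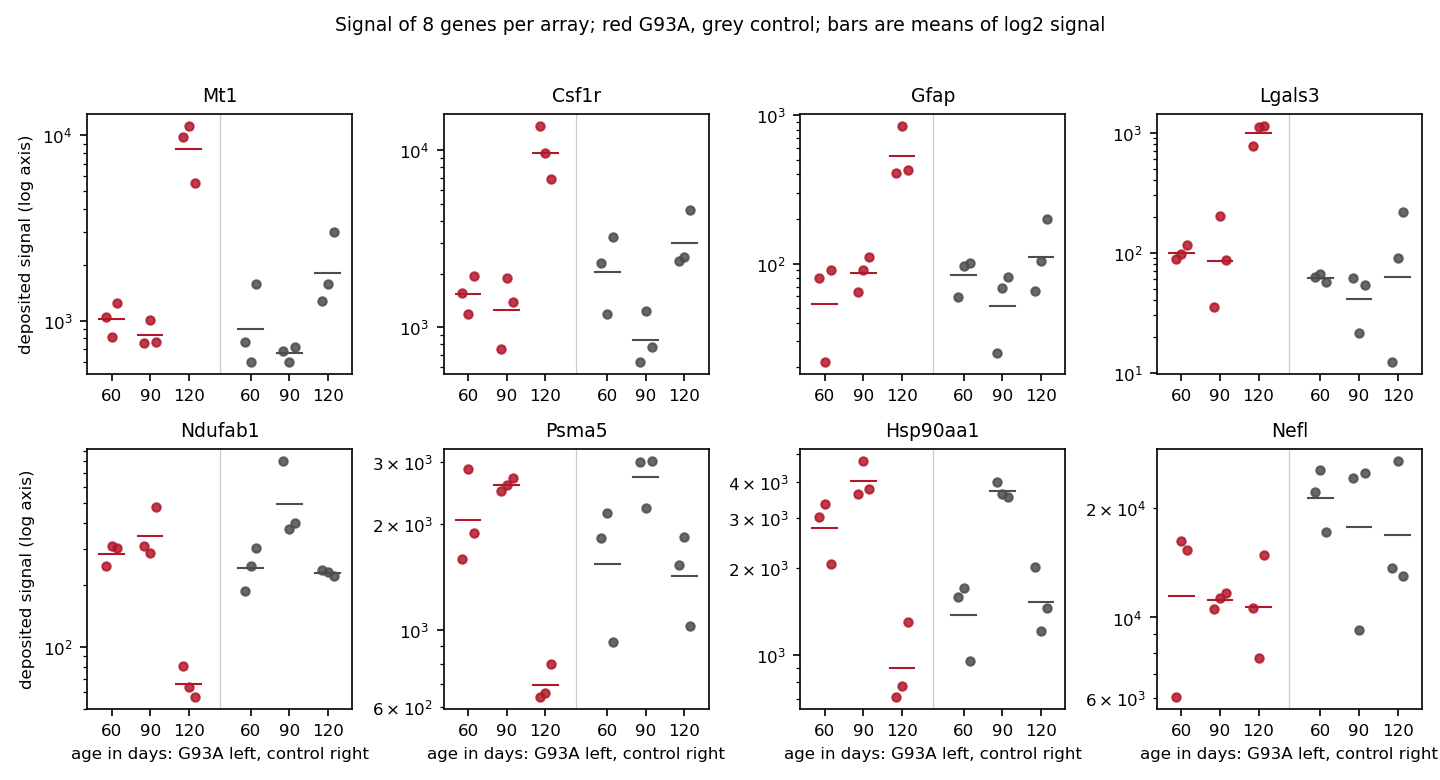
Deposited signal (log axis) of 8 genes on each of the 18 arrays by age in days, G93A in red at the left and control in grey at the right of each panel; bars are means of the log2 signal. Mt1, Csf1r, Gfap and Lgals3 are higher, and Ndufab1, Psma5 and Hsp90aa1 lower, on all 3 G93A arrays of 120 days than on those of 60 and 90 days, while Nefl overlaps between ages.

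No gene that defines motor neurons was called. Of 19 measured identity and subtype genes 0 passed limma's test in either direction, with 0 higher and 4 lower at an unadjusted p under 0.05, where 6.52% and 10.1% of all genes were, and their median was -0.24 against -0.16 in controls. The list level relative to all genes was 0.36 to 1.11 at 60 and 0.21 to 0.69 at 120 days, which overlap. The transcription factors Isl1 and Mnx1 differed by 0.80 ± 0.61 and -1.31 ± 0.79 (limma adjusted p = 0.552 and 0.427). Nefl, the light neurofilament chain, had 6044.4, 16204.4 and 15296.6 at 60 and 10625.2, 7745.9 and 14872.2 at 120 days (-0.10 ± 0.48, limma adjusted p = 0.946). Prph, peripherin, had 101.6, 281.5 and 113.7 and then 114.8, 123 and 183.4 (-0.11 ± 0.42, limma adjusted p = 0.93). Nefm and Nefh, the medium and heavy chains, differed by -1.38 ± 0.66 and -0.88 ± 0.41 (limma adjusted p = 0.297 and 0.287). Nefh was highest at 90 days, with 2694.7, 1924.4 and 3470.9 between 779.7, 1581.2 and 908.4 at 60 and 453.6, 508.3 and 775.1 at 120 days. Chodl, a marker of fast motor neurons, went from 207.5, 224.2 and 155 to 37, 68.9 and 54.2 without overlap (-1.90 ± 0.66, limma adjusted p = 0.132), and was 305.3, 578 and 105.7 and then 353.8, 482.8 and 86.6 in controls.

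Respiratory chain genes were called in both directions. Ndufab1, the mitochondrial acyl carrier protein that is also a complex I subunit, had the smallest p of all genes that fell. Its signals were 246.1, 309.1 and 300.8 at 60 days, 308, 285.5 and 475.9 at 90 and 80.2, 63.6 and 56.8 at 120 days. All 3 late arrays lay below all early ones, by 4.29-fold (-2.10 ± 0.34, limma adjusted p = 0.00244). Controls had 187.2, 247.6 and 301.9 at 60 and 235, 231.3 and 219.9 at 120 days, a difference of -0.08, and the difference between the genotypes passed (-2.03, limma adjusted p = 0.0288). Ndufv1, the flavin-binding subunit of complex I, rose by 1.69 ± 0.33, from 1472.2, 2234.2 and 1456.9 to 7614.7, 4455.6 and 4715.9 (limma adjusted p = 0.012). It missed without replicate 1 of 120 days (0.0516), and 1 of its other probe sets differed by -0.02. Ndufs8, another core subunit, rose by 1.71 ± 0.39 (limma adjusted p = 0.0269), a call lost without any of 4 G93A arrays (up to 0.111). None of the 5 other Ndufs8 probe sets was called, and they differed by -2.06, 0.04, 0.64, 0.79 and 0.91. These 3 were the called genes among 35 of complex I, whose median was 0.17 in G93A and 0.18 in controls.

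Of 42 genes of complexes II to IV and ATP synthase 1 rose and 1 fell. Cycs, cytochrome c, the electron carrier that also starts the caspase cascade, had 3066, 6598 and 5260.6 at 60 and 2036.9, 1546.1 and 1670.2 at 120 days (-1.45 ± 0.37, limma adjusted p = 0.0437). Every late array was below every early one, and a second Cycs probe set fell by 1.55 (limma adjusted p = 0.012). Atp5e, a small subunit of ATP synthase, rose by 1.66 ± 0.41, and by 1.86 in controls (limma adjusted p = 0.0353 and 0.0082). Each of these 2 calls was lost without any of 5 G93A arrays, with an adjusted p of up to 0.164 for Cycs and 0.139 for Atp5e. Of 25 genes of the TCA cycle and pyruvate dehydrogenase 2 fell and 0 rose: Mdh1, cytosolic malate dehydrogenase, and Dlat, the acetyltransferase of pyruvate dehydrogenase. Mdh1 went from 607.1, 318.1 and 253.2 to 45.9, 93.5 and 184.3 (-1.98 ± 0.51), and Dlat from 557.3, 453.8 and 310.1 to 194.5, 192.6 and 170.3 (-1.21 ± 0.32; limma adjusted p = 0.0454 and 0.0464). In controls Mdh1 rose by 1.72 and Dlat differed by 0.87 (limma adjusted p = 0.044 and 0.0916), and both differences between the genotypes passed (-3.70 and -2.08, limma adjusted p = 0.0105 and 0.0193). Of the 2 brighter _x_at probe sets of Mdh1, 1 fell by 1.38 in G93A with -0.51 in controls and no called difference between the genotypes (-0.87, limma adjusted p = 0.364). The other fell by 1.51 with 0.71 in controls and a called difference of -2.22 (limma adjusted p = 0.0377). The G93A calls of Mdh1 and Dlat were lost without any of 5 G93A arrays and without 1 or 2 control arrays (up to 0.203 and 0.201).

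Glycolytic genes mostly had values above 0 without passing. None of the 21 measured passed limma's test, with 8 higher and 0 lower at an unadjusted p under 0.05, where 6.52% and 10.1% of all genes were. Yet 19 of the 21 had a difference above 0 and their median was 0.73, against -0.12 for all genes and 0.49 for the list in controls. Aldoc went from 2255.9, 3148.5 and 2667.5 to 6268.3, 5769.6 and 4767.1 and Aldoa from 890.2, 1004.2 and 939.1 to 1469.2, 1993.4 and 1605.4, both without overlap (limma adjusted p = 0.0866 and 0.122), and a second Aldoa probe set, also _x_at, rose by 1.45 (0.0113). That second Aldoa probe set rose in controls too, by 1.23, without a called difference between the genotypes. Bpgm, which makes bisphosphoglycerate, and Hk2, an inducible hexokinase, had 1.06 ± 0.36 and 2.18 ± 0.83 (limma adjusted p = 0.127 and 0.176). Of 27 fatty acid oxidation genes and 38 mitochondrial carrier and import genes none was called on its representative probe set. Beyond these, _x_at probe sets of the carrier Slc25a5 fell by 1.52, 1.52 and 1.22, without a call in controls. An _x_at probe set of the carrier Slc25a39 rose by 1.09, and Slc25a28, a carrier outside the list, rose by 2.33. Idi1, isopentenyl diphosphate isomerase of the cholesterol pathway, was the 1 called gene of 32 in its list. It fell 5.22-fold, from 708.4, 711.7 and 609.6 to 103.7, 156.6 and 133.2 (-2.38 ± 0.44, limma adjusted p = 0.00777), and the difference from controls, where it was 0.52 higher at 120 days, passed (-2.90, limma adjusted p = 0.0184).

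Of 50 measured ubiquitin-proteasome genes 3 fell and 0 rose, 37 had a difference below 0, and the median was -0.38 in G93A and 0.59 in controls. With the hybridization-control term the G93A median was -0.06. Psma5, a subunit of the proteasome's outer ring, had 1589.5, 2872.3 and 1890.3 at 60 and 641.2, 659.2 and 798.9 at 120 days (-1.56 ± 0.32, limma adjusted p = 0.0152). Its neighbour in that ring, Psma7, fell by 1.36 on the log2 scale, from 298.6, 219.3 and 330.9 to 124.5, 84.2 and 121.1 (limma adjusted p = 0.0345). Psmd14, the deubiquitinase of the regulatory lid, fell by 1.49, from 908.6, 875.9 and 544.7 to 206.8, 272.8 and 350 (limma adjusted p = 0.0332). In all 3 genes the late arrays were below the early ones. At 90 days Psmd14 was higher than at 60 days, with 1686.9, 1062.1 and 1145. For Psmd14 the difference from controls passed (-2.02, limma adjusted p = 0.0396), and for Psma5 and Psma7 it did not (0.0967 and 0.214). The calls were lost without replicate 2 of either age for Psma5 (up to 0.0778), without any of 4 G93A arrays for Psmd14 (up to 0.130), and without any of the 6 for Psma7 (up to 0.128).

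Uba3, the catalytic subunit of the enzyme that activates NEDD8, had 794.9, 634.7 and 316.1 at 60 and 144.3, 109.8 and 114.6 at 120 days, a 4.45-fold fall (-2.15 ± 0.39, limma adjusted p = 0.00777). In controls it was 1.22 higher at 120 days, and the difference between the genotypes was -3.37 (limma adjusted p = 0.00276). Lnx1, a ubiquitin ligase that acts on Numb, fell by 1.89 and Marchf6, a ligase of the endoplasmic reticulum, by 1.62 (limma adjusted p = 0.00807 and 0.0128). Marchf7, another membrane-associated ligase, fell from 196, 152.5 and 77.5 to 20.7, 22.2 and 2.8, the last close to background (-3.60 ± 0.87, limma adjusted p = 0.0323). Each of these 3 also differed from controls (-2.87, -2.11 and -5.37; limma adjusted p = 0.004, 0.0198 and 0.0259). Ndfip1, an adaptor that recruits Nedd4-family ligases, fell by 1.77, from 2936.4, 5214.4 and 3233.9 to 1112.2, 964.2 and 1158.5 (limma adjusted p = 0.0126). The adjusted p was over 0.05 for Lnx1 without replicate 1 of 60 days (0.0513), for Marchf6 without that array (0.0793) or replicate 1 of 120 days (0.052), for Ndfip1 without replicate 2 of either age (up to 0.0622) and for Marchf7 without any of 3 arrays (up to 0.133).

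On representative probe sets the 2 called genes of the chaperone list fell. Hsp90aa1, the inducible cytosolic HSP90, had 3018.6, 3346.3 and 2073.3 at 60 days, 3645.9, 4733.7 and 3791.4 at 90 and 709.6, 778.3 and 1300.5 at 120 days. The late arrays lay below all others, and the fall was 3.08-fold (-1.62 ± 0.31, limma adjusted p = 0.0113). Cct4, a subunit of the CCT chaperonin that folds actin and tubulin, fell by 1.80, from 403.5, 171.1 and 271.9 to 66.9, 61.6 and 108.6 (limma adjusted p = 0.0148). These were the 2 called of 44 chaperones, of which 28 had a difference below 0. The list's median was -0.26 in G93A and 0.57 in controls, and with the hybridization-control term it was 0.09. For both genes the difference from controls passed (-1.78 and -2.37, limma adjusted p = 0.0378 and 0.0217). Hspd1, mitochondrial HSP60, went from 388.4, 341.6 and 228.5 to 87.8, 55.7 and 127.6 without passing (-1.87 ± 0.54, limma adjusted p = 0.07), and its difference from controls passed (-3.62, limma adjusted p = 0.0175). Cryab, a small heat shock protein, differed by 1.20 ± 0.34 (limma adjusted p = 0.0681). An _x_at probe set of Hspb8, another small heat shock protein, rose by 3.35 in G93A and by 2.89 in controls. It was not the representative probe set and is not in the count. Hsp90aa1 missed without replicate 2 of 120 days (0.0535), and Cct4 without that array or replicate 1 of 60 days (0.0621 and 0.0913).

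Single genes of the endoplasmic reticulum, autophagy and lysosome acidification fell. Herpud2, related to a protein of endoplasmic reticulum-associated degradation, had 192.5, 92.7 and 105.2 at 60 and 2.3, 36.4 and 4.1 at 120 days (-4.14 ± 0.81, limma adjusted p = 0.0117). Its other 2 tested probe sets differed by 0.29 and -0.41. Atf4, the transcription factor of the integrated stress response, measured by an _x_at probe set, fell by 1.61, from 747.6, 2075.2 and 1711.9 to 407.9, 386.3 and 595.8 (limma adjusted p = 0.0288). Tbk1, a kinase of autophagy receptors and itself a gene of familial ALS, fell by 1.48, from 518.6, 623.7 and 340.5 to 176.6, 119.9 and 241.5 (limma adjusted p = 0.0454). It was the 1 gene called among 30 of autophagy and the 1 among 24 mouse orthologues of ALS genes. Atp6v1h, a subunit of the vacuolar proton pump, was the 1 called of 17, from 48.5, 60.4 and 48.9 to 2, 12.6 and 4.5 (-3.43 ± 0.89, limma adjusted p = 0.0452). The pump list had a median of 0.02 in G93A, with 9 genes above 0 and 8 below, and of 0.65 in controls. An _x_at probe set of Atp6v0b, another pump subunit, rose by 1.58 in G93A and by 1.55 in controls. Late signals of Herpud2 and Atp6v1h were in part close to background, so the sizes of their falls depend on them. Of 35 genes of endoplasmic reticulum stress and folding Atf4 alone was called. These calls were among the less stable ones: Herpud2 missed without replicate 1 of 60 days (0.06), Atf4 without any of 4 G93A arrays (up to 0.133), Tbk1 without any of 4 G93A and 2 control arrays (up to 0.173), and Atp6v1h without any of 5 G93A arrays and 1 control array (up to 0.135).

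Called cytosolic ribosomal protein genes rose and called splicing genes fell. Of 44 measured cytosolic ribosomal proteins 4 rose and 0 fell, 33 had a difference above 0, and the median was 0.44 in G93A and 0.49 in controls. Rpsa, a small-subunit protein also known as the laminin receptor, had 2581.2, 2697.9 and 3648.3 at 60, 2761.1, 2671.1 and 2471.7 at 90 and 13609.7, 10412.1 and 11294.2 at 120 days. The late arrays stood 3.98-fold higher (1.99 ± 0.36, limma adjusted p = 0.00777). Rps10, Rps18 and Rplp0 rose by 1.33, 1.57 and 2.27 (limma adjusted p = 0.0269, 0.0311 and 0.0482). In controls these 3 rose by 1.92, 1.70 and 2.51 (limma adjusted p = 0.000632, 0.00851 and 0.0143), while Rpsa differed by 0.86 (0.138). The G93A calls of Rps10, Rps18 and Rplp0 were lost without any of 5, 5 and 4 G93A arrays (up to 0.0917, 0.115 and 0.234), and that of Rplp0 also without 2 control arrays. Ribosomal protein genes have many near-identical copies, so signals of single members are uncertain. Of 70 mitochondrial ribosomal proteins Mrpl52 rose by 1.55 and Mrps22 fell by 1.45 (limma adjusted p = 0.0433 and 0.0348), calls lost without any of 6 and 5 G93A arrays (up to 0.206 and 0.108).

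Of 62 splicing factors and hnRNP proteins 3 fell and 0 rose, and 40 were below 0. Srsf6, a serine/arginine-rich splicing factor, had 249.5, 218.8 and 197.7 at 60 and 63.7, 70.1 and 93.5 at 120 days (-1.56 ± 0.34, limma adjusted p = 0.0191). Hnrnph1, a splicing regulator that binds runs of G, fell by 2.27, from 470.4, 187.4 and 160.6 to 86.6, 20.9 and 69.5 (limma adjusted p = 0.0274). Nova1, the neuronal splicing factor, fell by 2.46, from 128.8, 135.7 and 197.4 to 83, 7.4 and 33.9 (limma adjusted p = 0.0311). The list's median was -0.36 in G93A and 0.03 in controls. Outside the list, Snrnp40 of the U5 particle fell by 1.96 and Cnbp, a nucleic acid-binding zinc finger protein, by 1.65 (limma adjusted p = 0.012 and 0.00918). Matr3, a nuclear matrix protein mutated in familial ALS, had 1742.4, 2786.4 and 1524.1 and then 625.4, 776.6 and 836.3 without passing (-1.40 ± 0.38, limma adjusted p = 0.0541), while a second probe set fell by 2.59 (0.00293) and the difference from controls passed (-2.16, 0.0377). Of 38 translation factors Eif4g2, which serves cap-independent initiation, fell by 1.66 and Eif3e, a subunit of initiation factor 3, by 2.57 (limma adjusted p = 0.017 and 0.0186). The other 3 Eif3e probe sets differed by 0.05, 0.19 and -0.55, and those of Eif4g2 by -1.57, -0.45 and 1.30. Srsf6 and Eif3e lost their call without any of 4 G93A arrays (up to 0.0843 and 0.111), Nova1 without any of 4 (up to 0.129), Hnrnph1 without any of 3 (up to 0.157), Eif4g2 without replicate 2 of either age (up to 0.0942), and Snrnp40 and Cnbp without replicate 2 of 60 days (0.0622 and 0.0507).

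Among axonal transport and cytoskeleton genes, Dync1i1, the neuronal intermediate chain of cytoplasmic dynein, fell 3.01-fold, from 385.2, 562.4 and 390 to 133.5, 221.5 and 104.5 (-1.59 ± 0.31, limma adjusted p = 0.012). It was the 1 called of 36 dynein, dynactin and kinesin genes, whose median was -0.28, and it missed without replicate 2 of 60 days (0.0583). Controls had 395.4, 299.7 and 496.4 at 60 and 422.7, 338.6 and 256.8 at 120 days, and the difference between the genotypes did not pass (-1.36, limma adjusted p = 0.107). Dnah5, a dynein heavy chain of motile cilia that is not part of that transport motor, fell from 68.9, 46.9 and 79 to signals close to background of 5, 4.2 and 4.3 (-3.82 ± 0.76, limma adjusted p = 0.012, and -2.80 with 5.4 added to each signal), and in controls fell by 2.48 (0.0472). Without replicate 1 of 60 days its adjusted p was 0.0526. Stmn4, a stathmin that binds tubulin, rose by 2.18 ± 0.54, from 190, 61.3 and 71.4 to 296.9, 408.2 and 642 (limma adjusted p = 0.034). It is in the list of axon injury and regeneration, where it was the 1 called of 29 with a list median of 0.63, and it rose in controls by 1.77 (0.0462). Its call was lost without any of 4 G93A arrays (up to 0.139). Plec, plectin, which links intermediate filaments to other structures, rose by 2.04, from 708, 1523.8 and 1132.7 to 6573.2, 2440.1 and 5349 (limma adjusted p = 0.00777), with a control difference of -0.01 and a difference between the genotypes of 2.05 (0.0401). A second Plec probe set differed by -0.15.

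Of 33 ion channel genes 2 rose and 0 fell. Kcnab2, an auxiliary subunit of voltage-gated potassium channels, rose by 1.46 ± 0.31, from 221.3, 148.1 and 216.8 to 534.2, 344.4 and 798.1 (limma adjusted p = 0.0174), and by 1.17 in controls (0.0251). Hcn2, a pacemaker cation channel, rose by 1.94 ± 0.47, from 37.6, 70.8 and 49.4 to 213.6, 135.3 and 257.9 (limma adjusted p = 0.0311), while controls differed by -0.07. Kcnab2 lost its call without replicate 2 of 60 or replicate 3 of 120 days (up to 0.0863) and Hcn2 without any of 5 G93A arrays (up to 0.129). None of 21 glutamate, glycine and GABA receptors, 30 calcium-handling genes or 37 synaptic vesicle genes was called. Their medians were -0.45, -0.31 and -0.23, and with the hybridization-control term -0.67, -0.21 and 0.05. Lifr, the receptor through which CNTF and leukaemia inhibitory factor act on motor neurons, was the 1 called of 43 neurotrophic and guidance genes. It fell 5.80-fold, from 481.4, 529.3 and 210.9 to 67.2, 49.2 and 83.3 (-2.54 ± 0.54, limma adjusted p = 0.0167), with a difference from controls of -3.05 (0.0373), and lost its call without any of 3 G93A arrays (up to 0.0782). A second Lifr probe set differed by 0.88.

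Several leading genes belong to no list used here. Rapgef3, an exchange factor for Rap proteins that responds to cyclic AMP, had 508.9, 339.1 and 456.4 at 60 and 2509.2, 2383.4 and 1486.1 at 120 days (2.27 ± 0.35, limma adjusted p = 0.00218). Clstn1, a calsyntenin that joins cargo to kinesin, rose by 1.75 ± 0.29 and Ncdn, neurochondrin, a protein of neurite outgrowth, by 1.90 ± 0.35 (limma adjusted p = 0.00293 and 0.00777). Both rose as far in controls, by 1.58 and 1.99 (limma adjusted p = 0.00181 and 0.00134). Slc13a3, a carrier of dicarboxylates measured here by an _x_at probe set, and Dbndd2, dysbindin domain containing 2, rose by 2.62 and 2.30 (limma adjusted p = 0.00777 for both), and by 1.80 and 1.62 in controls (0.0258 and 0.0223). Clpp, the mitochondrial matrix protease, rose by 1.69 (limma adjusted p = 0.0126) and missed without replicate 1 of 60 days (0.0571). By size, Aebp1, a matrix-associated repressor of adipocyte genes, went from 60.9, 15 and 60.7 to 667.5, 440.9 and 708.7, and the chemokine Cxcl14 from 69.5, 77.7 and 56.6 to 805.1, 572 and 616.5. They rose 15.6-fold and 9.76-fold (limma adjusted p = 0.0203 and 0.013), and Ifi27l2a, an interferon-induced gene, rose 11.5-fold (0.0499). A second Cxcl14 probe set differed by -0.65. Aebp1 lost its call without any of 4 G93A arrays (up to 0.106) and Ifi27l2a without any of 5 G93A and 3 control arrays (up to 0.183).

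On the side of the genes that fell, Dact1, an antagonist of Wnt signalling, had 99.7, 125 and 153.9 at 60 and 7.2, 4.2 and 8.7 at 120 days. The late signals were close to background (-4.28 ± 0.78, limma adjusted p = 0.00777, and -3.44 with 5.4 added to each signal), and Dact1 fell in controls as well, by 3.65 (0.00709). Gatm, the first enzyme of creatine synthesis, and Hprt, which salvages purines, fell by 2.12 each (limma adjusted p = 0.0148 for both). Hprt is often used as a reference gene. Its signals were 797.9, 496.1 and 238.3 at 60 and 75.7, 81.4 and 188 at 120 days, with a difference from controls of -3.22 (0.00872). Slc26a3, a chloride and bicarbonate exchanger, and Srp68, a protein of the signal recognition particle, fell by 3.80 and 3.51, to late signals of 10.8, 4.2 and 3.6 and of 53.7, 5.5 and 5.8 (limma adjusted p = 0.0311 and 0.0305). Atp13a2, a lysosomal polyamine exporter linked to inherited parkinsonism, fell by 1.20, and in controls by 1.13 (limma adjusted p = 0.0454 and 0.029), while a second Atp13a2 probe set rose by 3.13 (0.000891). The second probe set rose in controls too, by 2.45, without a called difference between the genotypes. Calls ended without any of 2 G93A arrays for Gatm (up to 0.0909), 4 for Hprt (up to 0.0913), 5 for Slc26a3 (up to 0.0897), 5 for Srp68 (up to 0.117), and 4 with 2 control arrays for Atp13a2 (up to 0.172).

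**Figure D5:**
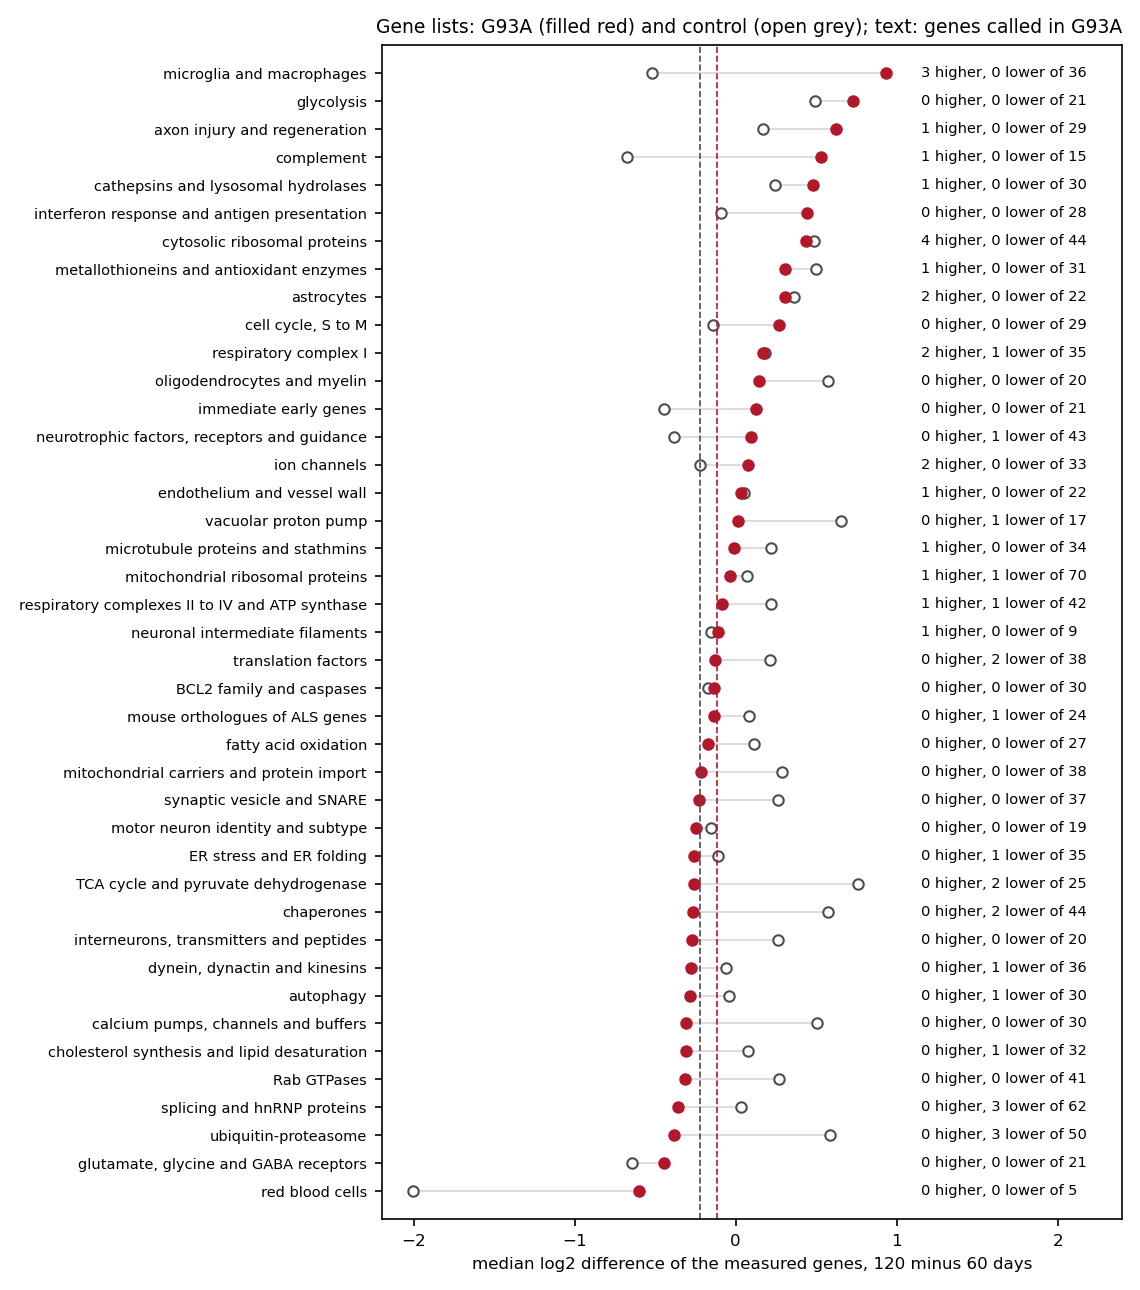
Median log2 difference between 120 and 60 days over the measured genes of each of 41 lists, G93A filled in red and control open in grey; dashed lines are the medians over all 10051 genes, -0.12 in G93A and -0.22 in controls, and the text at the right counts genes called in G93A. The microglia and macrophage list has the highest G93A median (0.94) and lies below 0 in controls, and the ubiquitin-proteasome list has -0.38 in G93A and 0.59 in controls.

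The age difference itself was set against that of controls over all probe sets. It was called for 334 probe sets (2.02%), of which 43 were higher and 291 lower in G93A than in controls. The 291 had median group levels of 8.65 at 60 and 7.51 at 120 days in G93A and of 7.18 and 8.61 in controls. Controls stood low at 60 days and G93A at 120 days. Of the 291, 45 were called within G93A and 173 within controls, tests that share their arrays with this one. Atp6v1b2, a subunit of the vacuolar proton pump, led these genes with a difference of -7.68 (limma adjusted p = 0.00114). It had 292, 162.7 and 30.8 at 60 and 9, 11.2 and 68.9 at 120 days in G93A, which overlap, and 3.9, 10.6 and 7.5 and then 545.5, 215.1 and 107.5 in controls, which do not. The control signals of 60 days and most G93A signals of 120 days were near background, so the size of the difference depends on them. Over the 23 alternatives that difference lay between -8.62 and -6.34.

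Oga, which removes O-linked N-acetylglucosamine, Tsc22d1, a transcriptional regulator, Emc7, of the membrane protein insertion complex, and Etnk1, ethanolamine kinase, followed with -4.28, -3.69, -3.98 and -5.79 (limma adjusted p = 0.00114 for each). Within G93A none of these 4 passed, with differences of -1.32, -1.17, -0.90 and -1.01, and all 4 rose in controls, by 2.96, 2.52, 3.08 and 4.77. Of the 43 higher, the leading genes were Cndp2, a dipeptidase, Mapkbp1, a scaffold of JNK signalling, Pard3b, a polarity protein, Zfp189, a zinc finger protein, and Hvcn1, a proton channel. Cndp2 rose within G93A by 1.39, from 613.1, 1363.2 and 1234.7 to 3178.9, 2708.2 and 2176.2 (limma adjusted p = 0.0347), a call lost without any of 4 G93A arrays (up to 0.188). Its difference from controls was 2.10 (0.0272). Hvcn1, which phagocytes use during the oxidative burst, had 18.3, 4.6 and 27.3 and then 128.4, 88.7 and 146.4 in G93A (3.17 ± 0.94, limma adjusted p = 0.0796), and 38.1, 88.9 and 79.6 and then 6.9, 11.3 and 9.9 in controls. The difference between the genotypes for Hvcn1 was 5.98 (0.022). For Mapkbp1, Pard3b and Zfp189 it was 4.35, 3.76 and 6.93 (0.0193, 0.0217 and 0.0246), with no call within G93A and a fall in controls for each.

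The remaining lists held no called gene in G93A. These were interferon response and antigen presentation (28 measured, median 0.44), immediate early genes (21, 0.13), the BCL2 family and caspases (30, -0.13), cell cycle genes of S to M phase (29, 0.27) and Rab GTPases (41, -0.32). With the hybridization-control term these medians were, in the same order, -0.05, 0.03, -0.11, 0.0006 and 0.12. At an unadjusted p under 0.05 limma gave 4 higher and 0 lower for interferon genes, 0 and 0 for immediate early genes, 2 and 4 for the BCL2 family and caspases, 5 and 0 for cell cycle genes and 2 and 5 for Rab GTPases, beside 6.52% of all genes higher and 10.1% lower.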

How the data were processed

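RNA of laser-captured lumbar motor neurons was measured on 18 one-colour arrays, 1 per animal, in 6 groups of 3. The deposited values are signal intensities on a linear scale, made by the authors with MAS5 per the submitters' processing notes, which name no version; the mean of each array without its outer 2% is close to 100. The array type gives no read depth, and the number of arrays limits the precision. Intensities under 1 (965 of 408420, 0.236%) were set to 1 before log2. Of 22690 probe sets, 64 controls were left out; 20380 had 1 gene symbol in the platform annotation, 691 had several and 1555 had none. Probe sets above the array median on at least 3 of the 18 arrays were tested (16565), and each of 10051 genes is represented by its tested probe set of the highest mean level, with _x_at probe sets used only where no other was tested, so that a brighter _x_at probe set can be passed over.

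One limma model (version 3.58.1, R 4.3.3) with 6 group means, 12 residual degrees of freedom and an intensity trend was fitted over all tested probe sets, with Benjamini-Hochberg adjustment and a threshold of 0.05. The model was tested on simulated data, with 50 probe sets changed at each size among those above the median level. It called 6% of true log2 changes of 1, 58% of 2, 82% of 3 and 98% of 4. A gene that was not called may therefore still differ. Single array measures were compared by two-sided exact permutation tests. Named genes are up to 15 called genes per direction of the smallest p that differed 2-fold or more without overlap, up to 5 per direction of the largest size on the log2(signal + 5.4) scale, up to 5 per direction of the smallest p for the difference from controls, called members and up to 4 others of the smallest p of each of 41 gene lists (1318 of 1536 genes found), and Sod1, Prph, Nefl, Gfap, Mbp, Aif1, Lgals3 and Mt1. Of these, not all are printed. The members and lists were chosen with earlier results of these data known. Labels do not say whether arrays were processed in batches. No 2 arrays held the same values (at most 0.445% of values equal). Promoter sequences are RefSeq's, build GRCm38.p6. Alternatives were a pseudocount, quantile normalization, centring, other filters, only the groups compared, the replicate number as a block, 2 array quality covariates, array weights, leaving out each array and, added after the data were seen, leaving out _x_at probe sets.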

Additional observations from a re-analysis of the deposited data

Results flagged for a closer look

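The age difference between 60 and 120 days differed between G93A and control motor neurons for 334 probe sets in limma's interaction test (2.02% of those tested, adjusted p under 0.05). Named genes with a lower age difference in G93A are given here with the log2 age difference of G93A minus that of controls.

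Among genes of protein folding and turnover these were Uba3 (-3.37), Lnx1 (-2.87), Marchf6 (-2.11), Marchf7 (-5.37), Psmd14 (-2.02), Herpud2 (-4.32), Cct4 (-2.37), Hsp90aa1 (-1.78) and Hspd1 (-3.62). Emc7, of the complex that inserts membrane proteins, had -3.98. Among genes of metabolism these were Mdh1 (-3.70), Dlat (-2.08), Ndufab1 (-2.03), Idi1 (-2.90), Etnk1 (-5.79), Oga (-4.28) and Hprt (-3.22). The others were Atp6v1b2 (-7.68), Tsc22d1 (-3.69), Eif3e (-3.60), Matr3 (-2.16), Lifr (-3.05), Nbea (-2.77), Sptbn1 (-2.54) and Agtpbp1 (-2.50).

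A higher age difference in G93A was called for Mt1 (2.03), C1qa (2.62), Plec (2.05), Cndp2 (2.10), Mapkbp1 (4.35), Pard3b (3.76), Zfp189 (6.93) and Hvcn1 (5.98). C1qa overlapped between ages in G93A and fell in controls, from 113.3, 70 and 157.8 to 28.4, 16.4 and 34.7 (-2.09, limma adjusted p = 0.0102). Of all 33 genes in this section, Atp6v1b2, Emc7, Etnk1, Lnx1, Oga, Tsc22d1 and Uba3 were called in each of 23 alternatives, and none of the 33 changed sign in any of them.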

How the results depend on the processing

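The counts of called probe sets in G93A, 166 higher and 165 lower, moved with several choices: 23 and 5 with the hybridization-control level as a covariate, 94 higher with the Gapdh 3' to 5' ratio, 109 and 89 with arrays centred on their median, 106 lower with no filter on low signals, and 78 and 88 without _x_at probe sets, the alternative added after the data were seen. Leaving out 1 of the 12 arrays of 60 and 120 days gave 43 to 235 higher and 33 to 248 lower. The share of calls that were higher was 50.2%, and it was 82.1% with the hybridization-control covariate 62.8% with only the groups compared, and 27.6% to 68.3% with 1 array left out, the lowest without G93A 120 days replicate 1. The 334 calls of the difference from controls became 666 with centred arrays, 99 with only the groups compared, 32 with the hybridization-control covariate, and 66 to 546 with 1 array left out. The 1112 calls in controls became 331 with only the groups compared, 1803 and 143 with the hybridization-control and Gapdh covariates, 667 with array weights, and 532 to 1024 with 1 array left out.

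All 331 probe sets kept their sign in each alternative that tested them, and 9 were called in all 23: those of Ncdn, Clstn1, Mt1, Rapgef3, Ndufab1 and Timp2, 2 of Csf1r, and the Atp13a2 probe set that rose (3.13), not the one that fell. Signs turned for uncalled genes: Etnk1 (0.87 with the hybridization-control covariate), Nefl (0.45 with the Gapdh covariate). With 1 array left out, Nefl ranged from -0.56 to 0.15, Prph from -0.38 to 0.35 and Sod1 from -0.18 to 0.33. The cause was not tested. With the replicate block 154 were higher and 155 lower, 388 differed from controls and 1118 were called in controls. Same-numbered arrays of 60 and 120 days correlated at -0.105, -0.03 and -0.02 in their deviations in G93A and at 0.03, 0.02 and 0.07 in controls, so the numbers do not pair them.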

Other observations

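The genes of this section were chosen after their values were seen. Fth1, the heavy chain of the iron store ferritin, had 4561.6, 5382.3 and 5679.2 at 60 days, 7449.6, 7643.9 and 7339.5 at 90 and 11378.1, 17655.8 and 15743.4 at 120 days. Its 3 ages did not overlap, and it rose 2.83-fold in G93A and by a log2 difference of 2.76 in controls (limma adjusted p = 0.0428 and 0.000148). Kcnc4, a potassium channel subunit of fast-firing neurons, rose by 1.52 (limma adjusted p = 0.0288).

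Both partners of the hypoxia-inducible factor fell, Hif1a by 2.43 and Arnt by 2.99 (limma adjusted p = 0.0323 and 0.0374), while glycolytic genes had a median of 0.73. Hif1a had 314.5, 194.6 and 111.3 at 60 and 42.4, 78.4 and 13 at 120 days. Nfkbia, the inhibitor of NF-kB, had 2312.8, 750.1 and 1391.1 at 60 and 441, 445 and 435.9 at 120 days and fell by 1.61 (limma adjusted p = 0.0323). Kitl, the ligand of the Kit receptor, fell by 2.98 (limma adjusted p = 0.0308), with 1 late array of 72.4 within the early range of 58.3 to 204.9.

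App, the amyloid precursor protein, fell by 1.34, and Clta, a clathrin light chain, by 1.25 (limma adjusted p = 0.0332 and 0.0425). Clta fell in controls as well, by 1.11 (limma adjusted p = 0.0366). Agtpbp1, the tubulin deglutamylase lost in the pcd mouse, fell by 1.60, from 306.6, 209.1 and 201.5 to 38.9, 95.8 and 124.5 (limma adjusted p = 0.0469). Nbea, neurobeachin, which serves the traffic of synaptic receptors, fell by 1.92 and Sptbn1, beta spectrin, by 1.45 (limma adjusted p = 0.019 and 0.0442). Cbln1, a synaptic organizer, fell by 2.06, Sfpq, a splicing protein of long neuronal transcripts, by 2.02 and Ppif, cyclophilin D of the mitochondrial permeability pore, by 3.56 (limma adjusted p = 0.0162, 0.0441 and 0.0445). Leaving out 1 array ended each of these calls for at least 2 of the 6 G93A arrays, with an adjusted p of up to 0.195 for Agtpbp1.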
